A study of Mus musculus with 10 samples.

Results

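The p200 genes encode interferon-inducible proteins that share a DNA-binding HIN domain, and in the mouse they lie side by side on chromosome 1. The genes described here were *Ifi202b*, *Ifi203*, *Ifi204*, *Ifi207*, *Ifi209*, *Ifi211*, *Ifi213*, *Mndal* and *Aim2*. They are 9 of the 54532 genes in the deposited expression table, and each name occurred once. These genes were chosen by their family name with their measured values in this comparison known, so that their levels and changes are given as a description, without a test.

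Type I and type II interferons act through JAK kinases and STAT transcription factors, and the p200 genes are among the targets of this pathway. Most p200 proteins join a pyrin domain, through which proteins assemble, to a HIN domain that holds double-stranded DNA. AIM2 uses both to detect DNA in the cytosol and to recruit the adaptor ASC and caspase-1 into an inflammasome, while p202, the product of *Ifi202b*, lacks the pyrin domain and is known to restrain AIM2.

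Expression was measured by RNA-seq in 10 retinas of BALB/c mice aged 2 months, an albino strain whose eyes lack the pigment that shields the retina. All mice were kept in the dark for 12 h. For 1 day thereafter those that gave 5 of the retinas were under normal light of 200 lux (NL), and those that gave the other 5 were under high-intensity light of 15000 lux (LD). The labels number the retinas 1, 4, 5, 7 and 8 in the NL group and 1, 4, 6, 7 and 8 in the LD group. Values are FPKM, read fragments scaled to gene length and library size, and levels of different genes are compared on this per-length scale only.

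The reads behind each FPKM value were recovered from the deposited values and gene lengths, which gave a depth of 21343389 to 26832535 reads in the NL group and 18965090 to 23378090 in the LD group. Of the 20 pairs of retinas within a group, 3 pairs (LD-4 and LD-6, NL-5 and NL-7, LD-1 and LD-7) had closer read profiles than the others, with a chi-square per gene of 2.52 to 3.41 against 10.9 to 38.6. The retinas are described as biological replicates, with no word on whether each came from its own mouse, and the standard errors and p-values measure the spread between these samples. Markers of the labelled tissue were present, since the 11 photoreceptor markers had a summed level of 6282 to 7560 FPKM in the NL and 1002 to 1968 FPKM in the LD retinas. The paper sequenced whole neural retinas. For this strain, light and exposure time, it reports no obvious degeneration in stained sections. It found significant degeneration after longer exposure. The FPKM values by themselves cannot tell fewer cells of a type from less RNA per cell, and cell numbers in the sequenced retinas were not tested.

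Promoter sequences came from RefSeq on GRCm38.p6 and cover 250 bases before to 50 bases after each start, and 8 of the 9 genes had an entry. The letters GAAANNGAA, the core of the interferon-stimulated response element, were searched on both strands. They stood in a promoter of 5 of these 8 genes, against 9.76% of the 27025 genes of the table. Each of the 5 is printed with 20 bases on either side and the core in capitals, because 4 of the 5 cores lay 35 to 41 bases before the start, in genes that differed widely in level. All 5 are on the minus strand of chromosome 1 and are written in the direction of the gene.
Ifi203: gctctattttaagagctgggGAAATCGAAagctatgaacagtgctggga
Mndal: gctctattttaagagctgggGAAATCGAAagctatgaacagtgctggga
Ifi211: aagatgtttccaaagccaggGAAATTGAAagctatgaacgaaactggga
Ifi207: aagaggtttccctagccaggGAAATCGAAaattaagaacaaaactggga
Ifi213: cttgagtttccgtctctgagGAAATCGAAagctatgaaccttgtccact

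The windows are at chr1:173942499-173942547 for *Ifi203*, chr1:173880195-173880243 for *Mndal*, chr1:173913055-173913103 for *Ifi211*, chr1:173741822-173741870 for *Ifi207* and chr1:173599317-173599365 for *Ifi213*. The first base of the core lay 35, 36, 37, 41 and 73 bases before the start, in the same order. The windows of *Ifi203* and *Mndal* were identical over all 49 bases although they lie at different places, and those of *Ifi207* and *Ifi211* were identical at 41 of 49. Over the 5 windows, 20 of the 49 positions held the same base, 12 of them outside the core. *Ifi203* and *Mndal* have another annotated start each. The other window of *Ifi203* had no core, and that of *Mndal* had 1 on the opposite strand, with its first base 53 bases before the start.

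The promoters of *Ifi202b*, *Ifi209* and *Aim2* did not hold GAAANNGAA. *Ifi202b* was the only 1 of the 8 with TTCNNNGAA, the letters of the gamma-activated site that STAT dimers bind, which stood in 9.55% of the genes of the promoter table. Its promoter, at chr1:173982795-173983094 on the minus strand, is printed whole with these letters in capitals, since this gene had the highest level of the family after LD.
Ifi202b: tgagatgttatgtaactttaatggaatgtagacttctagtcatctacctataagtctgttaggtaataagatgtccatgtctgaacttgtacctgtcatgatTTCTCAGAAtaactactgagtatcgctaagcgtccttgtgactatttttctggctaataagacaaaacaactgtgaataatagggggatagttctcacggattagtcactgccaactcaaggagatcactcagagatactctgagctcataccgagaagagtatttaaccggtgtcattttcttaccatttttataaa

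The first base of these letters lay 148 bases before the start. A match in these windows is a description of letters in the reference genome. The promoters of these BALB/c mice were not sequenced and may differ from the letters printed, and no binding was measured.

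In the NL retinas the family was at a low level. The summed FPKM of the 9 genes was 0.611 in NL-1, 0.452 in NL-4, 0.779 in NL-5, 0.532 in NL-7 and 0.531 in NL-8, which rested on 38 to 59 reads per retina. In the LD retinas it was 13.6 in LD-1, 11.5 in LD-4, 13.0 in LD-6, 13.8 in LD-7 and 6.99 in LD-8, from 422 to 808 reads. The lowest LD retina, LD-8, was far above the highest NL retina.

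The make-up of the family mRNA also differed between the groups. *Aim2* held 54.6 to 73.3% of the summed FPKM under NL but 3.27 to 6.97% after LD. *Ifi202b* held 0 to 27.0% under NL but 65.2 to 72.7% after LD. Without *Ifi202b* the other 8 genes summed to 0.446 to 0.692 FPKM under NL and to 2.43 to 3.97 FPKM after LD, so that the groups were apart without the most abundant gene too.

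**Figure D1:**
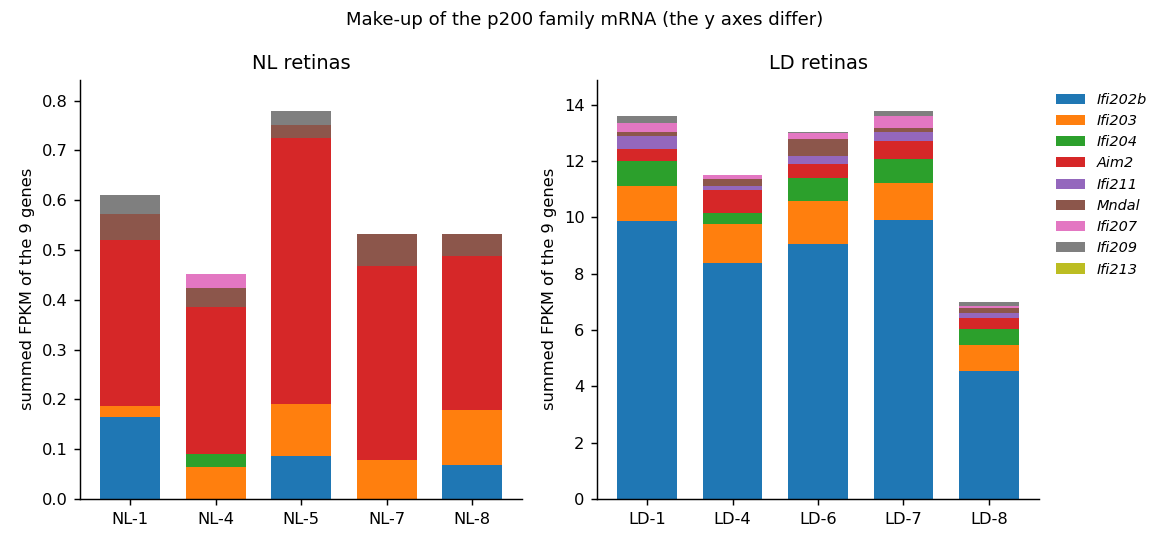
Stacked bars of the FPKM of the 9 p200 genes in each NL retina (left) and each LD retina (right), with a different y axis in each panel. *Aim2* (red) is the largest block in all 5 NL retinas, *Ifi202b* (blue) is the largest in all 5 LD retinas, and LD-8 has the lowest bar of its group at 6.99 FPKM.

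*Ifi202b* (ENSMUSG00000026535, chr1:173962568-173982744, minus strand) was measured at 9.86 FPKM in LD-1, 8.37 in LD-4, 9.06 in LD-6, 9.91 in LD-7 and 4.55 in LD-8. It was at 0.165 FPKM in NL-1, 0.0871 in NL-5 and 0.0685 in NL-8, and had no read in NL-4 and NL-7. The groups were far apart, and LD-8 lay apart from the other LD retinas. The mean was 0.0642 ± 0.0689 FPKM in the NL group and 8.35 ± 2.22 FPKM in the LD group (SD, n = 5 retinas per group). The 12 NL and 1595 LD reads gave a ratio of 130 at equal library size, with a 95% interval of 74.5 to 253. Intervals and floors of reads cover counting error only.

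On the log2(FPKM + 0.1) scale used across all genes, *Ifi202b* was higher after LD by 5.74 (standard error 0.31), which ranked 4 by size of increase among the 24508 genes tested. A gene was tested where 5 or more retinas reached 0.1 FPKM. The added 0.1 makes changes of weakly expressed genes look smaller than they were. The transcripts of *Ifi202b* share no stretch of 100 bases with those of another gene in the annotation. This covers exact matches of this length to annotated genes only.

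*Ifi203* (ENSMUSG00000039997, chr1:173920407-173942672, minus strand) encodes a p200 protein with a pyrin and a HIN domain. It was at 1.27 FPKM in LD-1, 1.39 in LD-4, 1.53 in LD-6, 1.33 in LD-7 and 0.925 in LD-8. The NL values were 0.0209 in NL-1, 0.0632 in NL-4, 0.103 in NL-5, 0.0773 in NL-7 and 0.110 in NL-8. The groups did not overlap, and *Ifi203* had reads in every NL retina, 56 in all. The mean went from 0.0748 ± 0.0356 to 1.29 ± 0.224 FPKM (SD, n = 5 per group), with a log2 difference of 3.00 (standard error 0.21) and a read ratio of 16.9 (95% interval 12.9 to 22.6).

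*Ifi204* (ENSMUSG00000073489, chr1:173747293-173766943, minus strand) encodes p204, a nuclear and cytosolic protein that has been linked to DNA sensing through STING. It was at 0.864 FPKM in LD-1, 0.402 in LD-4, 0.803 in LD-6, 0.826 in LD-7 and 0.555 in LD-8. It had 2 reads in NL-4, worth 0.0264 FPKM, and none in the other 4 NL retinas. The groups were apart, with LD-4 the lowest LD retina. The 279 LD reads against 2 NL reads gave a ratio of 137 with a 95% interval of 37.5 to 1136. The log2 difference was 2.87 (standard error 0.22), and 10.7% of the stretches of 100 bases in its transcripts also occur in other genes, most of them in *Ifi211*.

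*Ifi211* (ENSMUSG00000026536, chr1:173896345-173913046, minus strand) had no read in any NL retina. After LD it was at 0.459 FPKM in LD-1, 0.138 in LD-4, 0.301 in LD-6, 0.295 in LD-7 and 0.176 in LD-8, from 5 to 20 reads each. With the 5 NL retinas set at a floor of 3 reads over the group, it was at least 18.3-fold higher after LD. Of the stretches of 100 bases in its transcripts, 56.9% also occur in other genes, 37.2% in *Ifi205*, so that its level depends on how reads with several places were counted, which the sources used here do not give. *Ifi205* itself had 3 reads in all LD and none in the NL retinas.

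*Mndal* (ENSMUSG00000090272, chr1:173849126-173942491, minus strand), named for its likeness to the myeloid nuclear differentiation antigen, was at 0.158 FPKM in LD-1, 0.272 in LD-4, 0.591 in LD-6, 0.169 in LD-7 and 0.161 in LD-8. Under NL it was at 0.0516, 0.0389, 0.0272, 0.0649 and 0.0427 FPKM in NL-1, NL-4, NL-5, NL-7 and NL-8. The groups did not overlap, but LD-6 stood well above the other LD retinas. The 18 NL and 109 LD reads gave a ratio of 5.94 (95% interval 3.59 to 10.4), with a log2 difference of 1.24 (standard error 0.28). The annotated *Mndal* gene runs over *Ifi211* and into *Ifi203*, and its exons share 37 bases with those of *Ifi203* and 118 bases with those of the gene model Gm38050.

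*Ifi207* (ENSMUSG00000073490, chr1:173723427-173741747, minus strand) was at 0.312 FPKM in LD-1, 0.144 in LD-4, 0.209 in LD-6, 0.398 in LD-7 and 0.0788 in LD-8. It had 2 reads in NL-4 (0.0275 FPKM) and none in the other NL retinas. The groups were apart. The ratio of 89 to 2 reads was 43.7 with a 95% interval of 11.7 to 366. It reached 0.1 FPKM in fewer than 5 retinas and was not among the genes tested.

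*Ifi209* (ENSMUSG00000043263, chr1:173630917-173647928, plus strand) overlapped between the groups, because LD-4 had no read. Its other LD values were 0.231 FPKM in LD-1, 0.0378 in LD-6, 0.198 in LD-7 and 0.127 in LD-8, and its NL values were 0.0396 FPKM in NL-1, 0.0278 in NL-5 and 0 in NL-4, NL-7 and NL-8. The 49 LD and 5 NL reads gave a ratio of 9.62 (95% interval 3.85 to 30.9). Of its stretches of 100 bases, 16.9% also occur in *Ifi214*. *Ifi213* (ENSMUSG00000073491, chr1:173566283-173599274, minus strand) had a single read in all 10 retinas, in LD-6, and no difference was detectable at this depth.

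*Aim2* (ENSMUSG00000037860, chr1:173350879-173466040, plus strand), the DNA sensor of the family, had the highest level of the family under NL. It was at 0.334 FPKM in NL-1, 0.296 in NL-4, 0.535 in NL-5, 0.390 in NL-7 and 0.310 in NL-8. After LD it was at 0.445 in LD-1, 0.803 in LD-4, 0.498 in LD-6, 0.665 in LD-7 and 0.411 in LD-8. The groups overlapped, since NL-5 lay above LD-1, LD-6 and LD-8. The means were 0.373 ± 0.0973 and 0.564 ± 0.165 FPKM (SD, n = 5 each), and the log2 difference of 0.48 had a standard error of 0.21. The 142 NL and 219 LD reads gave a ratio of 1.51 (95% interval 1.22 to 1.88). Its transcripts share no stretch of 100 bases with another gene. The annotated *Aim2* gene overlaps *Cadm3* on the other strand without overlap of their exons, and the library kit named in the labels does not mark strand.

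**Figure D2:**
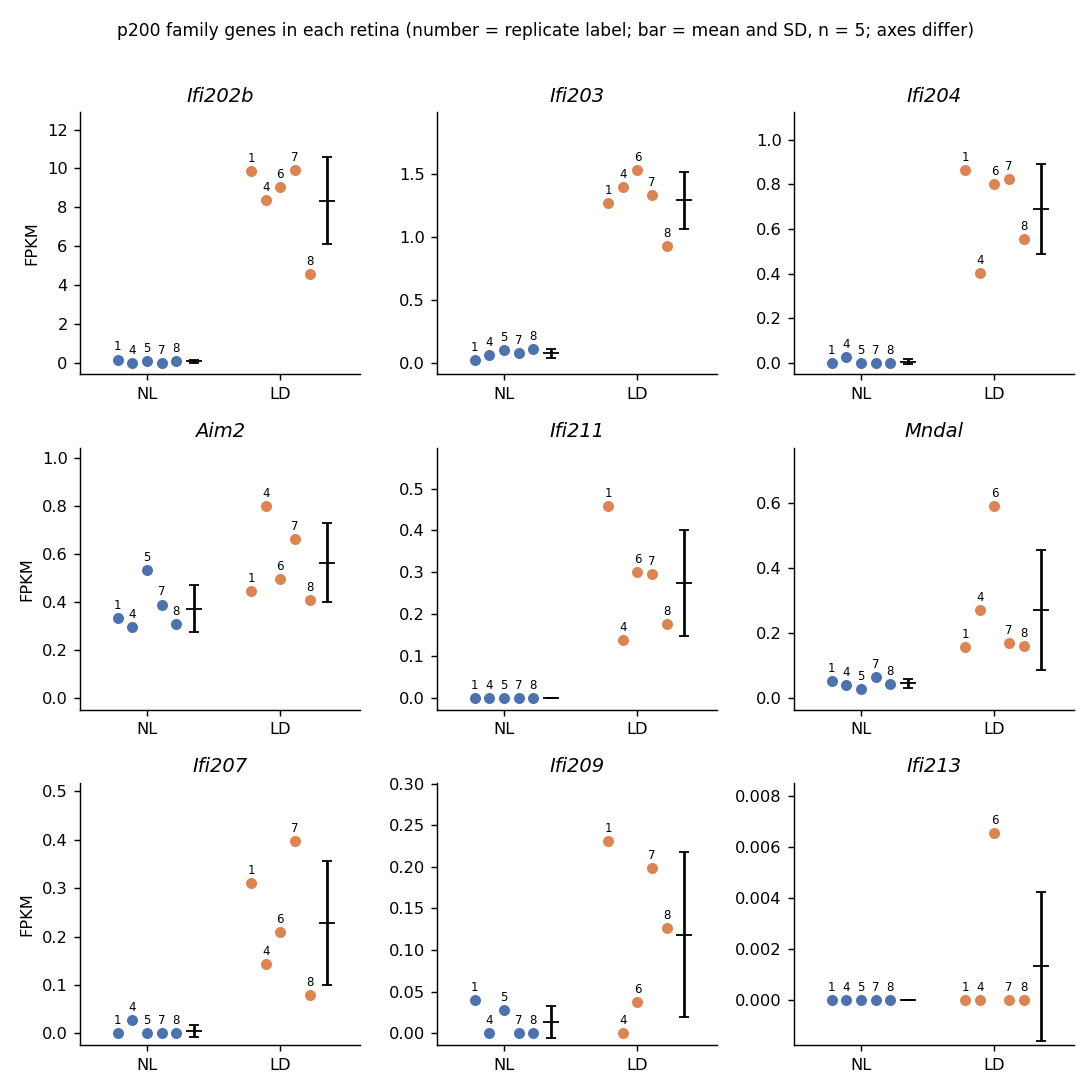
FPKM of each p200 gene in the 5 NL (blue) and 5 LD (orange) retinas, 1 panel per gene with its own y axis, each point marked with the retina's number, and the black bar giving the mean and SD (n = 5). The groups are apart in 6 panels, while *Aim2*, *Ifi209* and *Ifi213* overlap, and retina 8 is low among the LD points of *Ifi202b* and *Ifi203*.

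Of the 9 genes, 6 passed the filter on low values, 5 of them only through the LD retinas, so that these had to differ to pass. A call needed an adjusted p below 0.01 in limma together with a change over 2-fold, and 5 of the 6 were called higher and 0 lower, beside 4.13% of all genes tested called higher and 2.37% called lower. *Aim2* was not called, and *Mndal* kept its call in 2 of the 10 fits that left out a retina. The lowest LD value was above the highest NL value in 6 of the 9 genes, *Ifi207* included, beside 11.8% of all genes tested. The median log2 change of the 6 was 2.35, or 2.93 with *Ifi211* at its bound, and that of all genes tested was -0.01. The genes were chosen on this comparison, so nothing is read from these counts.

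The order of the levels differed between the groups. After LD the order by mean FPKM was *Ifi202b*, *Ifi203*, *Ifi204*, *Aim2*, *Ifi211*, *Mndal*, *Ifi207*, *Ifi209* and *Ifi213*. The values of *Ifi202b* lay above all those of *Ifi203*, and these above all those of *Ifi204*, while each later neighbour overlapped the one before it. Under NL, *Aim2* lay above all the other members in every retina, and the others overlapped with their neighbours.

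The LD retinas were not uniform over the family. Among the 8 members with at least 10 LD reads, LD-8 was the lowest LD retina for 4, LD-4 for 3 and LD-1 for 1. LD-1 was the highest for 3, LD-6 and LD-7 for 2 each, and LD-4 for 1, *Aim2*. The variance between LD retinas was 22.4 times that of counting for *Ifi202b* and 10.5 times for *Mndal*, and was lowest, at 2.31 times, for *Ifi211* among these 8 genes.

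The cluster holds further genes of the family. *Ifi203-ps* (chr1:173776529-173798270), annotated as an unprocessed pseudogene, had a mean of 0.0143 ± 0.0154 FPKM in the NL and 0.426 ± 0.107 FPKM in the LD retinas (SD, n = 5). Its log2 change of 2.19 had a standard error of 0.20 and passed the test with an adjusted p of 2.47e-05 in limma. All 5 NL values were under the 0.1 FPKM of the filter, so that it entered the test only through the LD retinas and had to differ to do so. *Ifi203-ps* had 4 NL and 123 LD reads, and 1.7% of the stretches of 100 bases in *Ifi203* transcripts also occur in it. *Ifi208* had 1 NL and 23 LD reads, *Ifi214* had 0 and 8, and *Ifi206* had none. A promoter of each of *Ifi205*, *Ifi206*, *Ifi208* and *Ifi214* held GAAANNGAA, and the 49-base window of *Ifi208* was identical to that of *Ifi213*. The same core thus stood in a promoter of *Ifi206*, without a read, and of *Ifi203*, with 966 LD reads.

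The 9 genes span 631.9 kb. Within this span and 500 kb on either side lie 51 other genes of the table, 36 without a read in any retina and 11 with 1 to 3 reads at most. Only 3 passed the filter, *Ackr1*, *Cadm3* and *Ifi203-ps*, and of these *Ifi203-ps*, with the limit given above, was called. *Cadm3*, a neuronal adhesion gene that overlaps the *Aim2* gene, had means of 60.9 ± 4.67 and 69.7 ± 6.80 FPKM under NL and LD (SD, n = 5 each), a log2 difference of 0.19 (standard error 0.08, adjusted p = 0.0889 in limma). None of the 26 olfactory receptor genes beside the cluster exceeded 1 read in a retina.

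**Figure D3:**
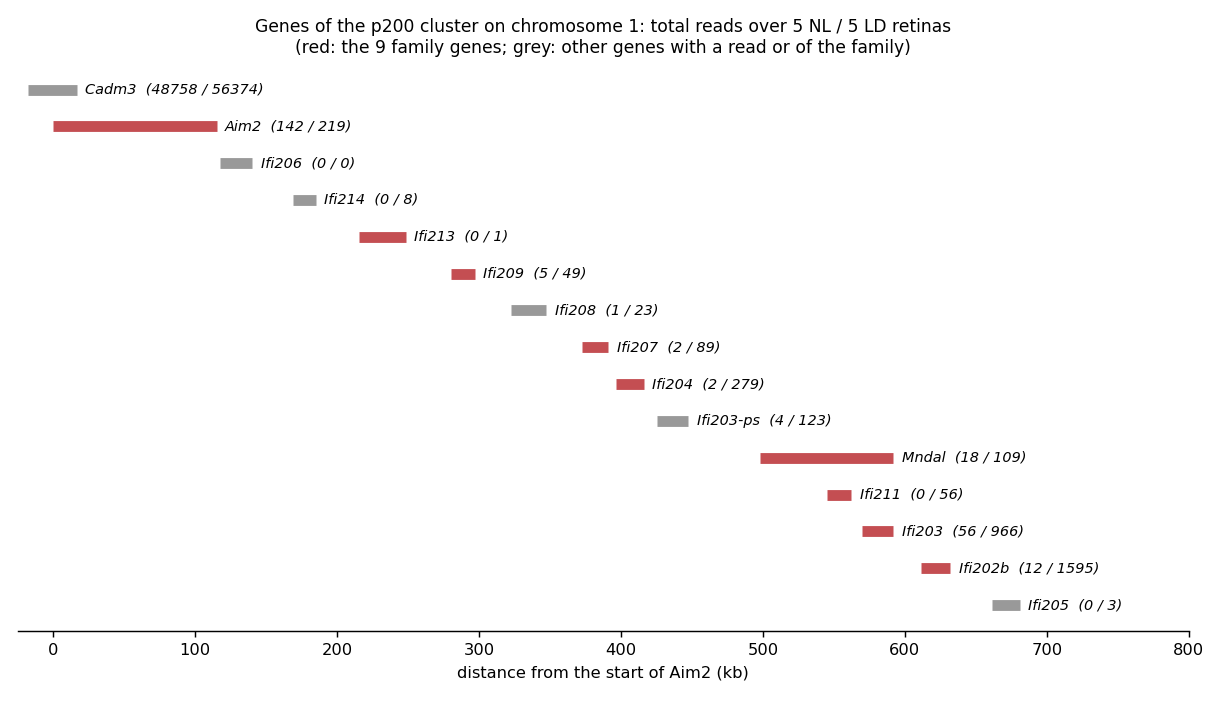
Genes of the p200 cluster drawn to scale as bars against the distance in kb from the start of *Aim2*, red for the 9 family genes and grey for the others with a read or of the family, each followed by its total reads in the 5 NL and the 5 LD retinas. Among the 9 family genes, reads after LD gather towards the right end, with 1595 for *Ifi202b* and 966 for *Ifi203*. Reads are not scaled to gene length. *Cadm3*, in grey at the left, had 10590 to 12677 reads in each LD retina. *Mndal* is seen to run over *Ifi211* and *Ifi203*.

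The p200 genes act within pathways whose other genes were taken from lists. These lists were chosen with earlier results of these data known, so their counts and p-values are not independent of the data. Of 21 ligand genes, 13 had no read in any retina. *Ifnb1*, which encodes interferon beta, had 3 reads, all in LD-7, and *Ifng*, which encodes interferon gamma, had 1 read, in LD-1. No ligand gene passed the filter on low values, so no difference between the groups was tested.

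Of the 19 genes for interferon receptors and signalling, 11 were called higher after LD, 0 lower and 8 did not pass, beside 4.13% and 2.37% of all genes tested. The median log2 change of the list was 1.34 against -0.01 for all genes tested. *Stat2*, which encodes a transcription factor of the interferon pathway, rose from 12.8 ± 0.739 to 54.2 ± 5.91 FPKM, and *Irf9*, which encodes its DNA-binding partner, from 4.78 ± 0.675 to 36.0 ± 3.60 FPKM (SD, n = 5 each). Their log2 changes were 2.06 (standard error 0.07) and 2.89 (standard error 0.10), with adjusted p of 4.19e-08 and 3.25e-08 in limma. *Usp18*, which restrains the type I receptor, rose by 5.08, *Irf7* by 3.90, *Irf1* by 3.52 and *Irf8* by 3.24 on the log2 scale. The feedback inhibitors *Socs3* and *Socs1* rose by 4.46 and 3.10. The receptor genes, named here after their values were seen, differed among themselves. *Ifnar2* rose by 1.12 (standard error 0.16, adjusted p = 0.000441 in limma) and *Ifnlr1* by 1.34 (standard error 0.27, adjusted p = 0.00374 in limma). Of the NL retinas, only NL-5 reached the 0.1 FPKM of the filter for *Ifnlr1*, at 0.118 FPKM. *Ifnlr1* thus entered the test only through the LD retinas and had to differ to do so. *Il10rb* and *Ifngr2* had log2 differences of 0.87 and 0.44, under the 2-fold minimum, with adjusted p of 0.00253 and 0.00169 in limma. *Ifnar1* and *Ifngr1* and the kinase genes *Jak1*, *Jak2* and *Tyk2* had log2 differences of -0.09 to 0.11, and those of *Ifngr1* and *Jak1* turned from -0.09 and -0.07 to 0.04 and 0.06 without the authors' factor per retina.

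Of 15 tested genes for DNA sensing, 4 were called higher, 0 lower and 11 did not pass, beside 4.13% and 2.37% of all genes tested. The median log2 change of the list was 0.13. Named after their values were seen, *Irf3* and *Samhd1* had log2 differences of -0.32 and 0.81, under the 2-fold minimum, with adjusted p of 0.00215 and 0.00133 in limma. All LD values of *Irf3*, up to 19.8 FPKM, lay below its NL values, from 21.2 FPKM. *Zbp1*, a sensor of Z-form nucleic acid, rose from a mean of 0.0466 ± 0.0154 to 2.21 ± 0.356 FPKM (SD, n = 5 per group). This was 3.97 on the log2 scale (standard error 0.17, limma adjusted p = 9.28e-08). *Mb21d1*, which encodes the DNA sensor cGAS, rose by 1.31 (standard error 0.23, adjusted p = 0.00191 in limma) and *Tmem173*, which encodes its partner STING, by 1.17 (standard error 0.19, adjusted p = 0.00115 in limma). No NL value of *Zbp1*, and for *Mb21d1* only that of NL-1 (0.113 FPKM), reached the 0.1 FPKM of the filter. *Zbp1* and *Mb21d1* thus entered the test only through the LD retinas and had to differ to do so. *Lrrfip1* was at the threshold of 2-fold with a log2 change of 1.00. With the 3 closest pairs of retinas averaged, which leaves fewer samples, *Zbp1* alone of these 4 kept its call. The log2 changes were then 1.18 for *Mb21d1* (adjusted p = 0.0269 in limma), 1.20 for *Tmem173* (adjusted p = 0.0173 in limma) and 0.99 for *Lrrfip1* (adjusted p = 0.00166 in limma), the last just under the 2-fold minimum.

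The partners of AIM2 moved unequally. Of 11 tested genes of the inflammasome and pyroptosis list, 7 were called higher, 0 lower and 4 did not pass, with a median log2 change of 1.18. Of all genes tested, 4.13% were called higher and 2.37% lower. Among the called genes of the list, *Casp4*, *Nlrp3* and *Naip2* passed the filter only through the LD retinas and had to differ to do so. *Casp1*, the inflammatory caspase, rose from a mean of 0.212 ± 0.112 to 2.83 ± 0.427 FPKM (SD, n = 5 per group). This was 3.28 on the log2 scale (standard error 0.22, limma adjusted p = 3.02e-06). *Casp8* rose by 2.36, *Ninj1*, which ruptures the membrane of dying cells, by 1.21, and *Gsdmd*, the pore-forming substrate of caspase-1, by 1.18. The adaptor gene *Pycard*, which encodes ASC, went from 0.704 ± 0.0872 to 1.25 ± 0.151 FPKM, a log2 difference of 0.75 under the 2-fold minimum. The substrates *Il1b* and *Il18* had log2 differences of 0.76 (standard error 0.29, adjusted p = 0.0799 in limma) and 0.09 (standard error 0.10, adjusted p = 0.563 in limma). With the closest pairs averaged, 4 genes of this list were called, and *Gsdmd* had a log2 change of 1.15 with an adjusted p of 0.0106 in limma.

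**Figure D4:**
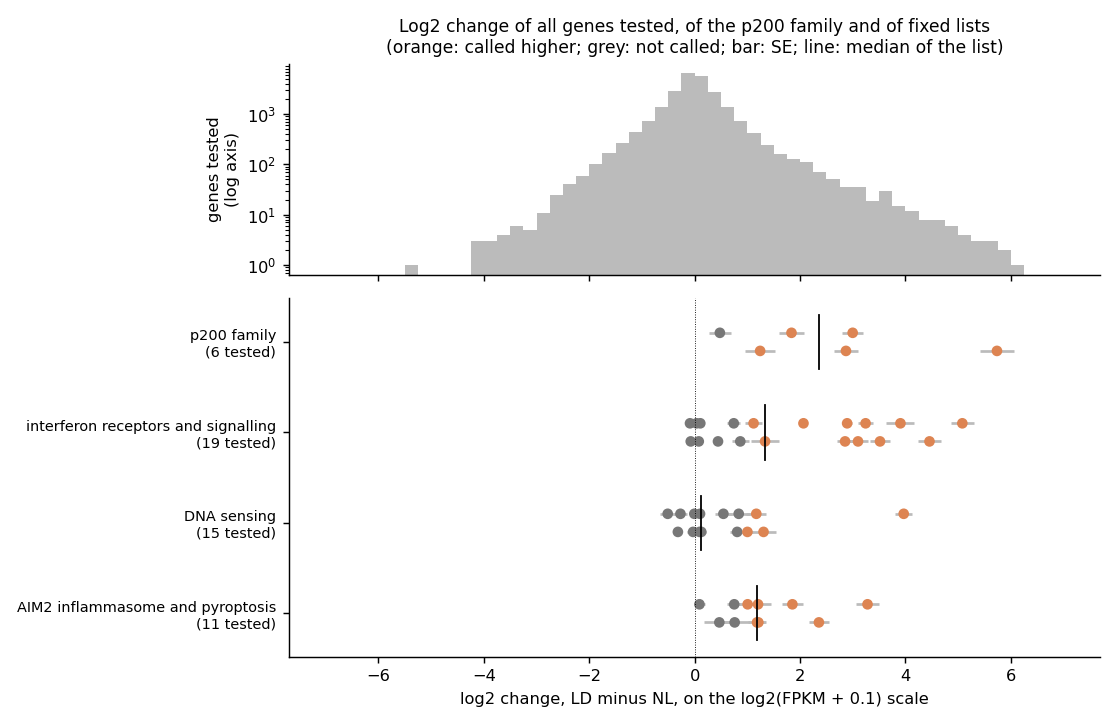
Top, the log2 change of all 24508 genes tested (LD minus NL, log2(FPKM + 0.1) scale, gene count on a log axis). Below, the same quantity for the 6 tested p200 genes and the tested genes of 3 lists, with SE bars, a line at each list's median, orange for genes called higher and grey for genes not called. The p200 genes run from 0.48 for *Aim2* to 5.74 for *Ifi202b*, and the medians of the lists are 1.34, 0.13 and 1.18 from top to bottom.

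The summed levels of some cell markers differed between the groups as well. The 15 markers of microglia and macrophages had a summed level of 37.2 to 58.2 FPKM under NL and 80.7 to 186 FPKM after LD, with none at 0 in either group. The 15 markers of infiltrating leukocytes summed to 1.82 to 2.59 FPKM under NL and to 1.40 to 2.84 FPKM after LD. Among these, *Ly6c2*, *Ncr1*, *Cd3g* and *Ms4a1* were at 0 in all NL retinas, and *Ms4a1* in all LD retinas. The 6 endothelial markers summed to 38.8 to 48.0 and 53.2 to 88.4 FPKM. *Kdr* held most of this sum, with means of 30.0 ± 4.07 and 49.8 ± 12.8 FPKM (SD, n = 5 per group), and each of the others overlapped between the groups. The 8 markers of Müller glia summed to 1179 to 1396 FPKM under NL and 745 to 1046 FPKM after LD. The lower sum rested on *Glul*, which fell from 711 ± 94.8 to 165 ± 8.77 FPKM (SD, n = 5 per group). Without it the other 7 markers summed to 544 to 619 FPKM under NL and 580 to 876 FPKM after LD. These ranges overlapped. *Apoe*, the most abundant of the 7, had means of 337 and 338 FPKM under NL and LD. On the log2 scale, *Gfap*, *Vim*, *Sox9* and *Slc1a3* differed by 3.20, 2.02, 0.79 and 0.50. *Aqp4*, *Apoe* and *Rlbp1* differed by 0.08, -0.01 and -0.52. The 10 markers of the pigment epithelium overlapped, at 120 to 221 and 105 to 157 FPKM. Most of this sum was *Ttr*, with means of 57.6 and 68.3 FPKM under NL and LD, and *Otx2*, with 66.2 and 41.9 FPKM. The authors used *Otx2* as a marker of bipolar cells. The part of these cells in the levels of the p200 genes was not tested.

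The genes whose course over the 10 retinas was nearest to the mean course of the 6 tested members were sought among the 16239 genes whose mean reached 1 FPKM under NL or LD. Nearness was the root mean square difference of the centred log2 values. *Shisa5* was nearest at 0.158, then *Dhx58* at 0.168, *Smim3* at 0.172, *Tgm2* at 0.175 and *Tor3a* at 0.180. From NL to LD, the mean of *Shisa5* went from 3.20 ± 0.386 to 19.9 ± 2.95 FPKM and that of *Dhx58* from 0.475 ± 0.0779 to 3.43 ± 0.590 FPKM (SD, n = 5 per group). Nearly all of this course is the difference between the groups, which all 10 retinas share, so the likeness is a description.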

How the data were processed

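The authors deposited a table of FPKM values for 10 retinas, with gene positions and lengths on GRCm38. The submitters' notes name TopHat2 2.0.9, Bowtie2 2.0.6 and the build mm8, while 53499 of 54409 gene identifiers found in GENCODE M21 have the same position there. The counting program and its treatment of reads with several places are not given in the sources used here. FPKM multiplied by gene length was divided by the worth of 1 read, a step estimated for each retina from its lowest values. The result was whole in 100% of the values (tolerance 0.01 read) and gave the reads. Samples were grouped by their labels. LD and NL were compared by limma (version 3.58.1, R version 4.3.3) with the trend option on log2(FPKM + 0.1). The test took the 24508 genes that reached 0.1 FPKM in 5 or more retinas, with Benjamini-Hochberg adjustment over them. A call needed an adjusted p under 0.01 and over 2-fold. Ratios of reads carry exact conditional 95% intervals. Simulated data covered 24089 genes in independent samples, with the same dispersion for every gene. On these the model called 120 of 126 changed genes whose mean reached 1 FPKM, 25 of 69 lower ones and 2 unchanged ones. The spread of the real data differed between genes, so these counts do not give its error rate. Alternatives changed the pseudocount, filter, scaling, trend, test, threshold, replicate block and the retinas included. The members and the gene lists were chosen with earlier results of these data known. All 9 members were named, with the other cluster genes, the called genes beside the cluster, the 5 nearest courses and, from each pathway list, up to 6 called genes whose mean reached 1 FPKM, beside a set of genes named in any case. Further list genes, among them the receptor genes, were named after their values were seen. Python 3.11.15, scipy 1.17.1 and matplotlib 3.10.9 were used. A RefSeq promoter of *Ifi204* and protein sequences were not used here. A gene of the pathway lists is not reported here.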

Additional observations from a re-analysis of the deposited data

Results flagged for a closer look

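The 9 genes and their summed FPKM were searched for retinas that stood apart. A retina did so where its gap to the nearest of the other 4 in its group exceeded 0.71 of the group's range. This is Dixon's 95% limit for 5 values. It was exceeded in 5 of 18 sets of 5 retinas, with sets that are all at 0 left out. For continuous values chance gives about 1 in 20 sets. This rate does not hold for sets with 1 value above 0, which always meet the limit. *Ifi202b* was at 4.55 FPKM in LD-8, below 8.37 to 9.91 FPKM in the other LD retinas. *Mndal* was at 0.591 FPKM in LD-6, above 0.158 to 0.272 FPKM in the others. The other 3 cases were sets with 1 value above 0, which rested on 1 or 2 reads in that retina. They were *Ifi204* at 0.0264 FPKM and *Ifi207* at 0.0275 FPKM in NL-4, and *Ifi213* at 0.00654 FPKM in LD-6.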

How the results depend on the processing

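No called change, count or log2 change of a member turned its direction under the alternatives run. The median log2 change of all genes tested turned from -0.01 to 0.08 with TPM scaling and 0.11 without the authors' factor per retina, a shift of 0.12, so that the sign of uncalled differences smaller than this depends on the scaling. The number of genes called, 1595 as reported, was 6818 at an adjusted p under 0.05 without a fold minimum and 816 with a pseudocount of 1, and of these 3543 and 504 were higher. A filter of 1 FPKM, which tests fewer genes, left 664 genes called higher, 1 member, 0 genes beside the cluster, 2 genes of DNA sensing and 4 of the inflammasome list, and a members' median of 5.74. A pseudocount of 1 left 2 members, 0 genes beside the cluster, 1 gene of DNA sensing, 3 of the inflammasome list and a members' median of 0.54. That median was 4.38 with a pseudocount of 0.01 and 4.29 in limma-voom on the recovered reads. DNA sensing had 7 genes higher and 2 lower at an adjusted p under 0.05 without a fold minimum. With the 3 closest pairs averaged it had 1, and the inflammasome list 4. The causes of these shifts were not tested beyond the construction of each alternative.

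For the 4 replicate numbers that both groups share, the deviations of same-numbered retinas from their group means had correlations of -0.09 to 0.07. Such weak correlations do not decide whether the numbers pair the retinas. With the replicate block on these 8 retinas, 808 genes were called, 550 of them higher, with 3 members, 1 gene of DNA sensing and 3 of the inflammasome list. The same 8 retinas without the block gave 1182 genes and 2 genes of DNA sensing. Leaving out each retina in turn gave 1379 to 1603 genes called, 910 to 993 of them higher, 4 to 5 members with a median of 2.23 to 2.48, 10 to 11 genes of interferon signalling, 3 to 4 of DNA sensing, 5 to 7 of the inflammasome list and 1 beside the cluster. *Lrrfip1* kept its call in 6 of these 10 fits. The presence of *Xist*, added after the data were seen, gave 1623 genes and 5 members. For members with fewer than 10 reads in a group, depth limits the ratio.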
